A study of Mus musculus with 12 samples.

Results

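The genes described here are 52 genes that act in mitotic entry, the spindle, the kinetochore, chromosome condensation and cytokinesis, listed by name. The list was drawn up with earlier results of these data known, so it is not independent of them. Of these, 51 were measured by a probe set that carries a single gene symbol, out of 19938 genes on the array, and Ccnb1 was not analysed here. They were measured in cultured mouse fibroblasts of the immortalised NIH3T3 line, 48 h after transfection, on Affymetrix arrays that give 1 log2 expression value per probe set. The comparisons address what happens to gene expression when UBF is lost, a nucleolar factor of ribosomal RNA transcription that Ubtf encodes. The 4 groups of 3 arrays are cells given the first siRNA against UBF (oligo 1), cells given the second, independent siRNA against UBF (oligo 2), cells given sirEGFP, a control siRNA named for EGFP, and Mock cells. All cells were exposed to the Dharmafect 2 reagent, with the siRNA at 40 nM or, for Mock, with no siRNA. The series describes the arrays of a group as biological replicates of 1 cell line, and the precision is limited by there being 3 arrays a group.

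Cells enter mitosis when Cdk1, bound to A- and B-type cyclins, is switched on by Cdc25 phosphatases. They leave it when the anaphase-promoting complex marks securin and the cyclins for destruction, once the spindle checkpoint is satisfied. Most of the genes are transcribed late in the cell cycle, through promoters that often hold CCAAT boxes, bound by NF-Y, and a cell cycle genes homology region (CHR), bound by the MuvB complexes that also carry B-Myb and Foxm1 or, in resting cells, the repressor p130. In such bulk RNA, fewer cells in G2 or mitosis and less RNA per cell cannot be told apart.

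The promoters of 4 of the genes that differed between the siRNAs are shown because most members hold these elements. They were taken by rank of p in the comparison of the siRNAs among genes that hold both a CCAAT box and a CHR. Each runs 5′ to 3′ on the gene's own strand, from 250 bases before to 50 bases after the RefSeq start site in GRCm38.p6, with the matches to CCAAT and to TTTGAA, or to their reverse complements ATTGG and TTCAAA, in capitals. Kif11 lies on the plus strand at chr19:37376132-37376431, Bub1b on the plus strand at chr2:118597961-118598260, Ttk on the plus strand at chr9:83834439-83834738 and Kif23 on the minus strand at chr9:61946750-61947049.
Kif11: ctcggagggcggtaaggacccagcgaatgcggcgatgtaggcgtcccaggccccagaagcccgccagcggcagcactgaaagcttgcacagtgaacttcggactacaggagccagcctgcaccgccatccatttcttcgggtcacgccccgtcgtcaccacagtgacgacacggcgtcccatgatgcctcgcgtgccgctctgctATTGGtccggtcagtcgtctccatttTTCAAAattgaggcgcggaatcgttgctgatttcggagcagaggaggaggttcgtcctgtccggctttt
Bub1b: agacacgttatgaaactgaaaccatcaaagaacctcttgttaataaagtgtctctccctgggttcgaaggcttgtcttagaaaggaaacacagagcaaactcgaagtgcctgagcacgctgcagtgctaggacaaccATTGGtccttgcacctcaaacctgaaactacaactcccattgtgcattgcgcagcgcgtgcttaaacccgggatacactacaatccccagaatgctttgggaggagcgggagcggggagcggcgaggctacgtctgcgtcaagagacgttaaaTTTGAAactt
Ttk: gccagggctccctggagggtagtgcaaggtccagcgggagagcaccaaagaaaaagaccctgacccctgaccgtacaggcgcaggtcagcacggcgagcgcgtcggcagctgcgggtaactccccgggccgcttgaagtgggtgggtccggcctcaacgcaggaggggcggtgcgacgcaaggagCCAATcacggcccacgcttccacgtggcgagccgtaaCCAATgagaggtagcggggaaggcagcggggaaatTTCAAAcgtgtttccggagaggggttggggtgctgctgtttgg
Kif23: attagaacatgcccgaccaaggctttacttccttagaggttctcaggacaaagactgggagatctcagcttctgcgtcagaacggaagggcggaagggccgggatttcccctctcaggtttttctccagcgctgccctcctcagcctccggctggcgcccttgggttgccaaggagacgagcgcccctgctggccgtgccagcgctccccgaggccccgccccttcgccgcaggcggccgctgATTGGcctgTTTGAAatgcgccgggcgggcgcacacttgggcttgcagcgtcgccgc
In Kif11 the reverse CCAAT match begins 45 bases and the reverse CHR match 19 bases before the start site. In Bub1b the CCAAT match lies 113 bases before the start site and the CHR match 40 bases after it. Ttk holds a pair of CCAAT matches, 65 and 28 bases before the start site, and a CHR match 7 bases after it. In Kif23 the CCAAT match begins 7 bases before the start site and the CHR match 2 bases after it.

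A promoter was found for 43 of the 51 measured genes. Both strands were searched for CCAAT, for TTTGAA (the main form of the CHR) and for TTTAAA (its second form), letter for letter, and matches could overlap one another. CCAAT was present in 69.8% of the genes, against 41.1% of all 27025 genes in the RefSeq table. TTTGAA was present in 74.4% against 20.2%, and TTTAAA in 23.3% against 14.9%. A CCAAT match together with either CHR form was found in 65.1% of the genes and in 12.2% of all genes. The TTTGAA matches centred on the start site, with a median distance of 0.5 bases and 35 of 44 matches within 100 bases of it, and the CCAAT matches lay before it, with a median distance of -70.5 bases and 49 of 74 within 100 bases. These matches are counted over 46 promoters, as 3 of the genes have 2 promoters. The windows of such a pair overlap, so a site in both is counted for each. With only the bases before the start site searched, TTTGAA was found in 37.2% of the genes and in 18.3% of all genes. Among the members with a promoter, the 35 that hold a CHR form had a median log2 difference between oligo 1 and oligo 2 of -0.49, and the 8 that hold none a median of -0.39, with overlapping ranges. These matches describe the letters of the window and show no binding.

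**Figure D1:**
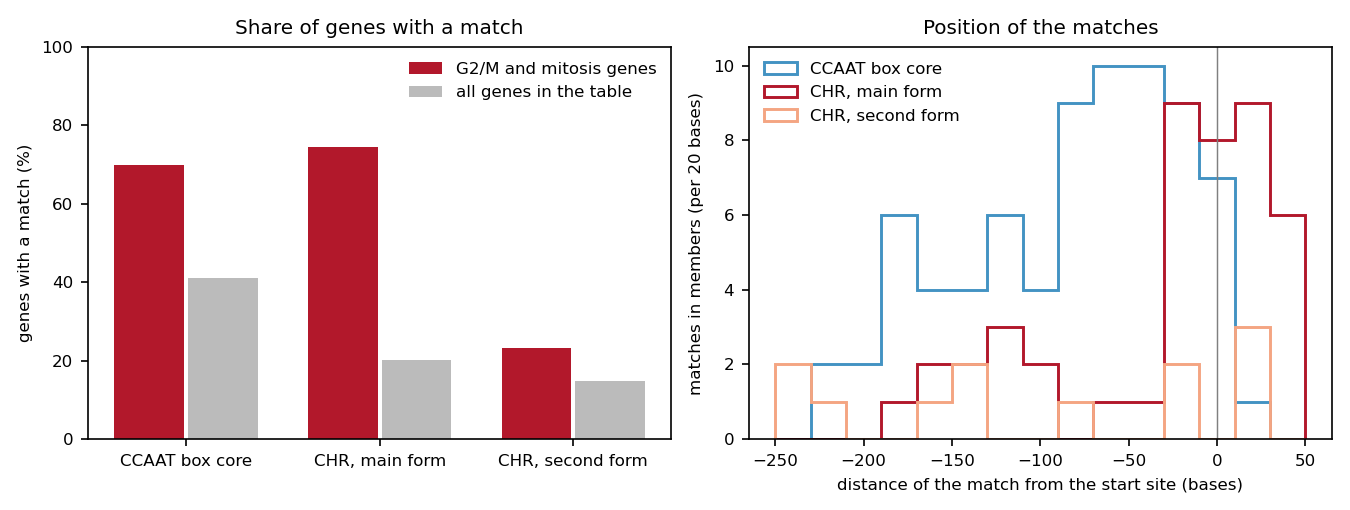
Left, the percentage of the 43 G2/M and mitosis genes with a promoter (red) and of all 27025 genes in the RefSeq table (grey) that hold each motif within the window. Right, the number of matches in the members' promoters per 20 bases of distance from the start site; CHR matches of the main form gather around the start site and CCAAT matches before it.

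Ubtf, the gene targeted by both siRNAs, was measured first as a check of the labels. It read 7.998, 7.74 and 7.64 on the oligo 1 arrays, 7.90, 7.83 and 7.49 on the oligo 2 arrays, 8.68, 8.31 and 8.04 on the sirEGFP arrays and 8.54, 8.63 and 8.41 on the Mock arrays. All 6 knockdown arrays lay below all 6 control arrays, with a difference of -0.67 (exact permutation test over 924 splits, two-sided p = 0.00216). Against sirEGFP alone, the control used for most results here, the change in Ubtf was -0.55 with oligo 1 (limma adjusted p = 0.107) and -0.61 with oligo 2 (adjusted p = 0.0771), neither called, and against Mock it was -0.74 (adjusted p = 0.0252) and -0.79 (adjusted p = 0.0146). The changes against sirEGFP were -0.39 and -0.44 without sirEGFP array 1, and -0.71 (adjusted p = 0.0674) and -0.76 (adjusted p = 0.049) without sirEGFP array 3. Between the siRNAs Ubtf differed by 0.05 (95% interval -0.30 to 0.40, limma adjusted p = 0.942), an interval that does not show equal knockdown. Of 11 measured fibroblast markers, 9 lay above the median of all genes, with Vim highest, against 1 of 6 epithelial, 2 of 6 macrophage and 1 of 4 endothelial markers. Some of these markers moved with the same contrast as the members: between the siRNAs 4 of 11 fibroblast, 0 of 6 epithelial, 2 of 6 macrophage and 1 of 4 endothelial markers were called. Lyz2, which encodes lysozyme, was higher with oligo 1 than with oligo 2 by 1.29, Csf1r, a macrophage growth factor receptor gene, by 0.80, Thy1 by 0.67 and Lox by 0.50, while Pdgfrb differed by -1.33, Cdh5 by -0.96 and Pdgfra by -0.81. The calls of Lyz2 and Csf1r were kept whichever single array was left out, and each of the other 5 was lost without 2 to 9 of the 12 arrays in turn. The mean log2 level of the fibroblast list lay between 8.18 and 8.52 on the oligo 1 arrays, 8.487 and 8.492 on the oligo 2 arrays, 7.96 and 8.18 on the sirEGFP arrays and 8.10 and 8.27 on the Mock arrays. For the macrophage list the range was 5.04 to 5.17 with oligo 1, 4.63 to 4.95 with oligo 2, 4.70 to 4.85 with sirEGFP and 4.62 to 4.99 in Mock cells, so that oligo 1 stood above the other groups. The endothelial list ran between 4.36 and 4.66 with oligo 1, 4.76 and 4.91 with oligo 2, 4.57 and 4.66 with sirEGFP and 4.51 and 4.83 in Mock cells, and the epithelial list between 4.8 and 5.06 over all arrays. The part of these markers in the members' results was not tested. Arrays correlated at 0.980 to 0.994 within groups and 0.975 to 0.994 between groups. Along the main axis of spread within groups, which held 41.5% of the within-group variance, oligo 1 array 1 and sirEGFP array 1 stood at one end (scores -0.50 and -0.44) and oligo 1 array 2 at the other (0.53). Main counts are also given without these 3 end arrays, which leaves oligo 1 with a single array that is assumed to vary like the other groups.

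The G2/M and mitosis genes had lower group means with oligo 1 than in any other group. With oligo 2 their means lay closer to those with sirEGFP, most of them below. Relative to Mock cells, 43 of the 51 means were lower with oligo 2 and 39 with sirEGFP, where 48% and 45.3% of all genes were lower. All 51 genes had their lowest group mean with oligo 1, where 19.8% of all genes had theirs. The mean level of the 51 genes, each centred on its own mean over the 12 arrays, was -0.42, -0.44 and -0.48 on the oligo 1 arrays, 0.02, 0.06 and 0.05 on the oligo 2 arrays, 0.11, 0.24 and 0.07 on the sirEGFP arrays and 0.13, 0.30 and 0.35 on the Mock arrays. The 3 oligo 1 arrays stood together, 0.44 log2 units or more below each of the other 9. The 3 oligo 2 arrays lay next, below every sirEGFP and Mock array, though only just below sirEGFP array 3 (0.0625 for oligo 2 array 2 against 0.0681). In 31 of the 51 genes (60.8%) all 3 oligo 1 arrays lay below all 9 other arrays, which held for 2.02% of all genes.

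Against sirEGFP, 24 of the 51 genes fell with oligo 1 and 0 rose (limma, Benjamini-Hochberg adjusted p under 0.05 over all 19938 genes), where 1.43% of all genes were called lower and 1.04% higher. Their median log2 change was -0.58, against 0.02 for all genes, and it ranged between -1.26 for Ncapg2 and -0.11 for Cenpa. With oligo 2 the same comparison called 1 gene, Spdl1, where 0.742% of all genes were called lower and 1.52% higher. At an unadjusted p under 0.05 it gave 6 lower and 2 higher, where 5.38% of all genes were lower and 7.49% higher. The median change with oligo 2 was -0.07, against -0.01 for all genes, and 36 of the 51 changes were below 0. Without sirEGFP array 2 that median was -0.04 with 29 below 0, and without sirEGFP array 3 it was -0.14 with 41 below 0. Both comparisons share the sirEGFP arrays. The number called with oligo 1 was 7 without sirEGFP array 2, 13 without sirEGFP array 3 and 11 without oligo 1 array 3. Beside these, 0.426%, 0.657% and 0.642% of all genes were called lower. When only the groups compared entered the fit it was 7, where 0.306% of all genes were called lower. Without the 3 end arrays the median change was -0.65, and all 51 changes were below 0. Of the 24 calls, 7 were kept whichever single array was left out: Tpx2, Ncapg2, Prc1, Ect2, Kif11, Bub1b and Birc5. The other 17 were all lost without sirEGFP array 2 (adjusted p = 0.0513 to 0.194), 13 of them without oligo 1 array 3 (0.0569 to 0.179), 11 without sirEGFP array 3 (0.0626 to 0.179) and 10 without oligo 1 array 1 (0.0653 to 0.150). Leaving out any 1 of the other 8 arrays lost Kif23, Cdc25c or Mki67, singly or in pairs (0.0504 to 0.0654).

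The siRNAs were then set against each other, a comparison with no shared control. With oligo 1, 17 of the 51 genes (33.3%) were lower than with oligo 2 and 0 were higher, where 2.3% of all genes were called lower and 1.37% higher. The median log2 difference was -0.47, against 0.03 for all genes, and all 51 differences were below 0, where 43.3% of all genes were. The 3 oligo 1 arrays lay below the 3 oligo 2 arrays in 34 of the 51 genes, where 9.19% of all genes showed this. Set against each other by replicate number, 48, 50 and 50 of the 51 genes were lower with oligo 1, with medians of -0.39, -0.53 and -0.55. Of the 17 calls, 6 were kept whichever single array was left out: Tpx2, Ncapg2, Ncaph, Kif11, Bub1b and Ndc80. Of all genes, 1.21% were called lower without oligo 1 array 3, 1% without oligo 2 array 3 and 1.36% without oligo 2 array 2. The count of the 51 genes was 7, 7 and 9 there in turn. Without the 3 end arrays it was 3 (Tpx2, Ncaph and Ncapg2), while 50 of the 51 differences stayed below 0 with a median of -0.49.

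**Figure D2:**
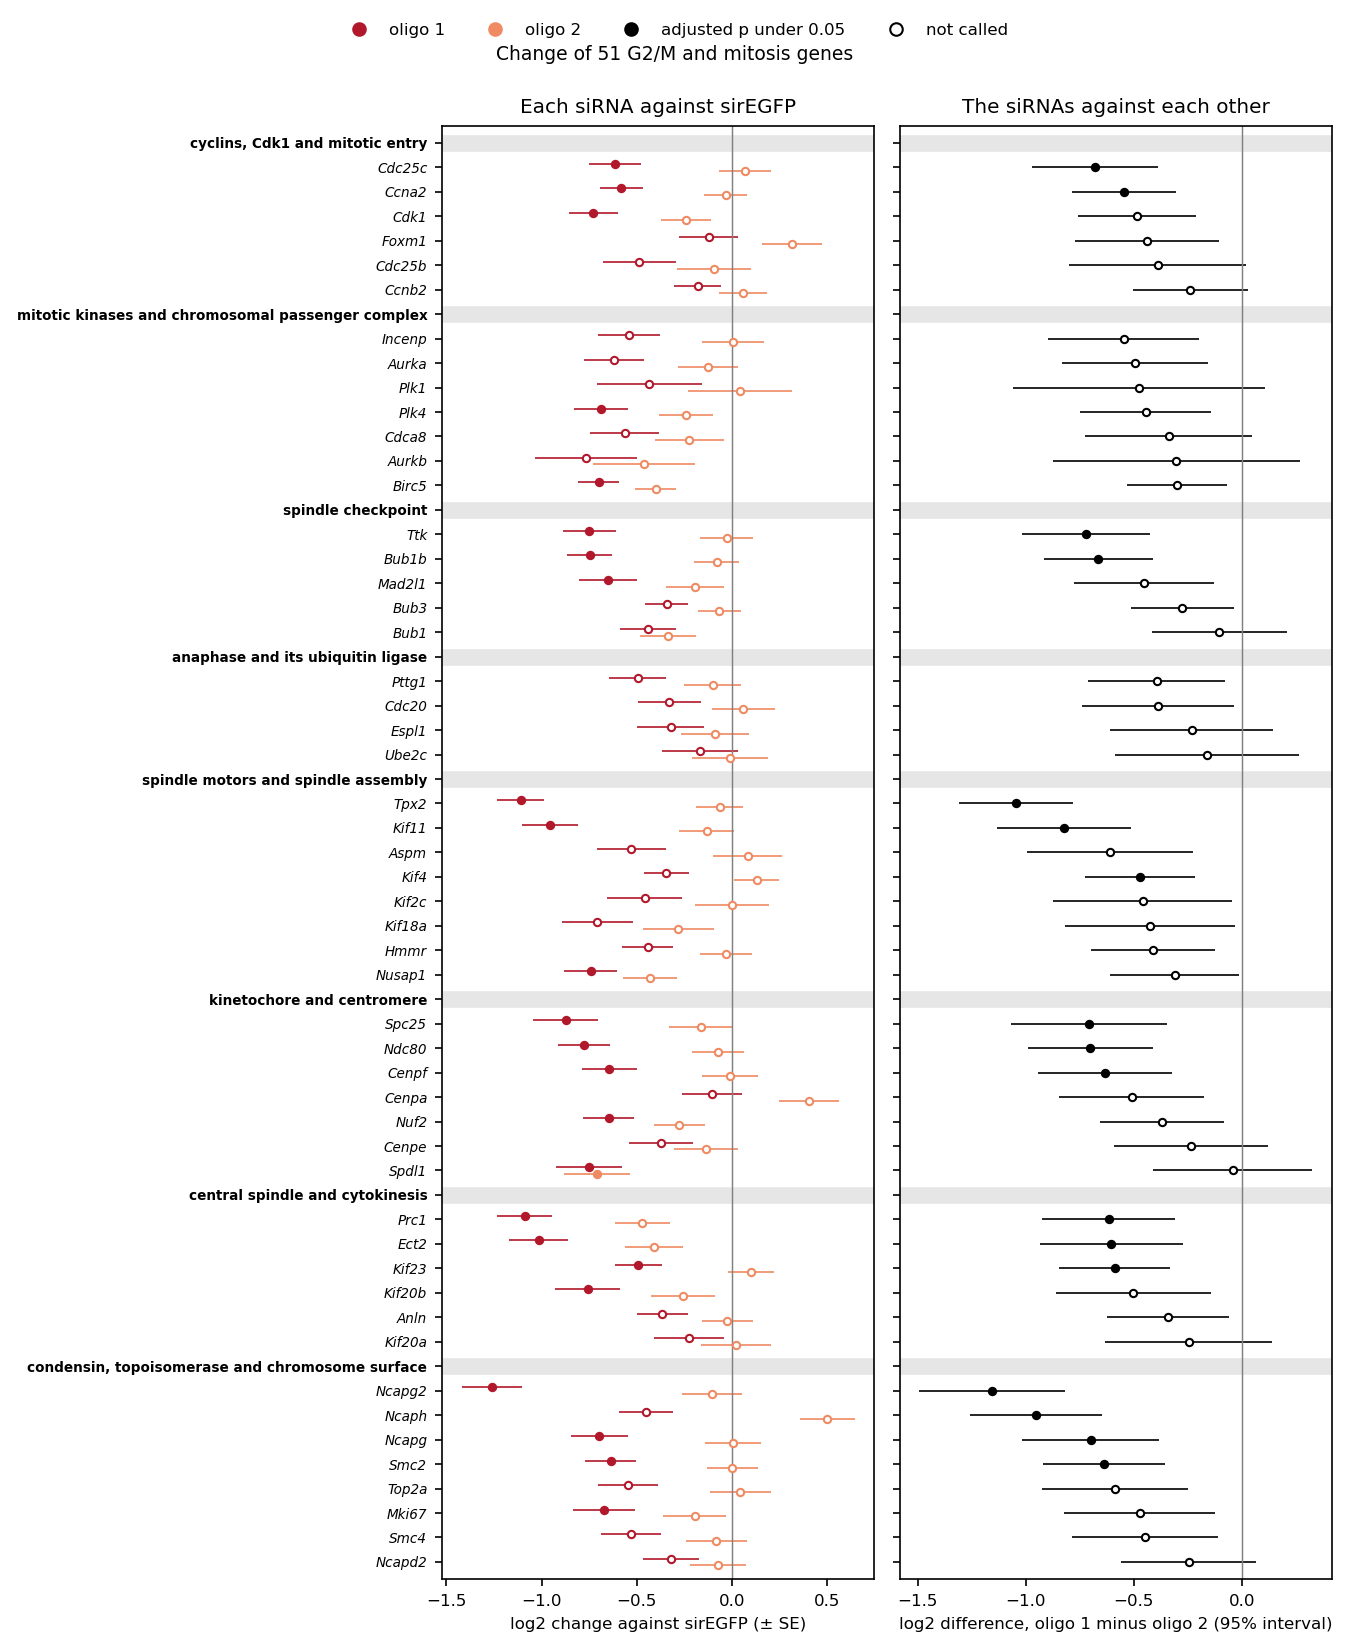
Log2 change of each of the 51 genes, grouped by role, against sirEGFP with oligo 1 (dark red) and oligo 2 (orange), with limma's standard error (left), and the difference oligo 1 minus oligo 2 with its 95% interval (right). Filled points passed an adjusted p of 0.05; all 51 differences lie below 0 and 17 are filled, while oligo 2 has 1 filled point on the left, Spdl1.

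**Figure D3:**
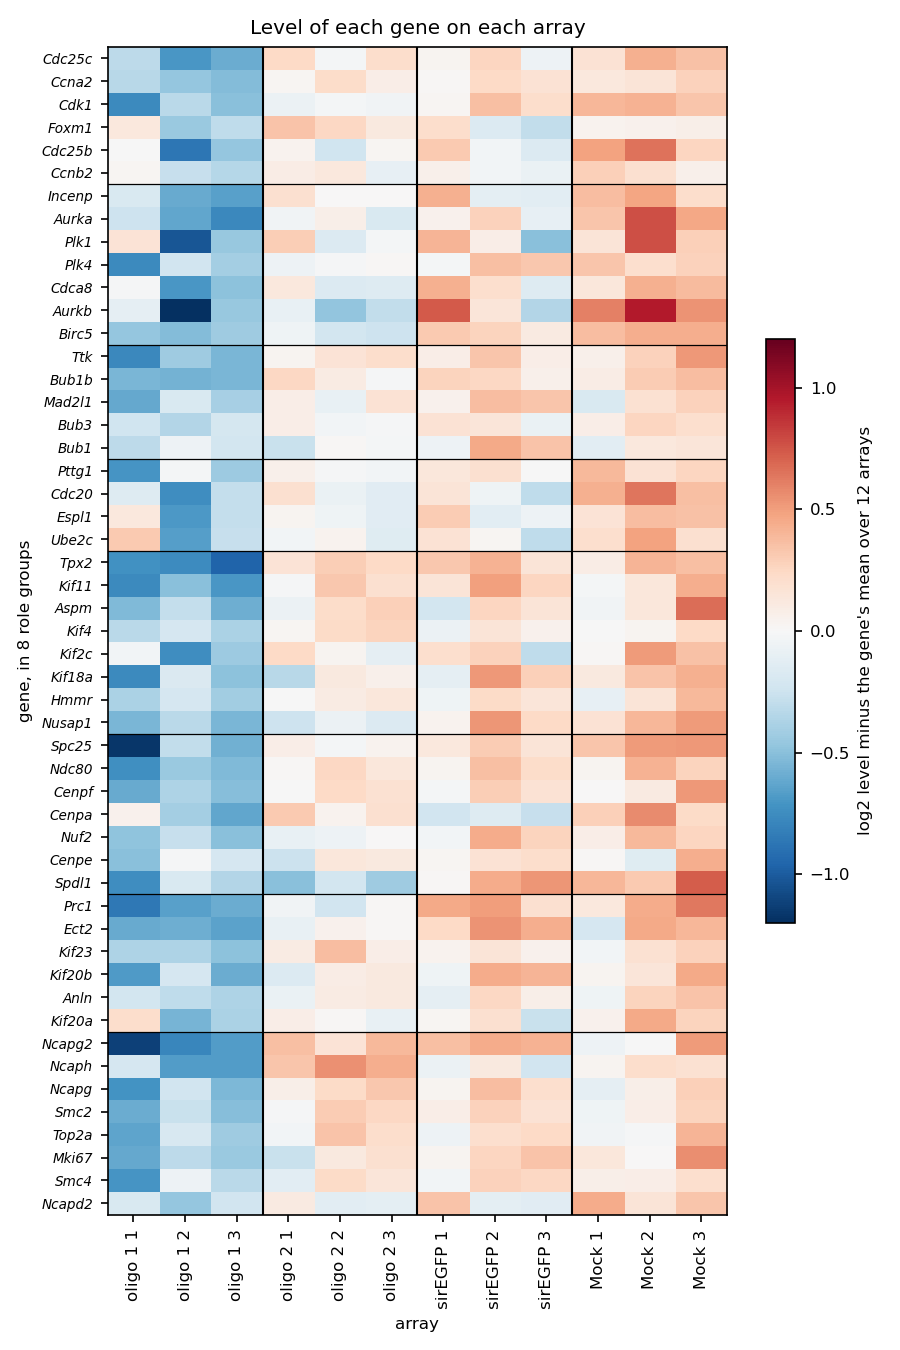
Log2 level of each gene (rows, in 8 role groups) on each of the 12 arrays (columns), minus that gene's mean over the arrays. The oligo 1 columns are blue in most rows, but oligo 1 array 1 lies above the gene's mean for Foxm1, Plk1, Ube2c, Espl1 and Kif20a, among others. Within oligo 1, arrays 1 and 2 differ in opposite ways for different rows.

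Of the 6 measured genes for cyclins, Cdk1 and their regulators, Cdk1, Ccna2 and Cdc25c fell against sirEGFP with oligo 1 and none was called with oligo 2, with medians of -0.53 and 0.01. Cdc25c, a phosphatase that activates Cdk1, read 7.53, 7.15 and 7.26 with oligo 1, 8.09, 7.83 and 8.06 with oligo 2, 7.88, 8.11 and 7.79 with sirEGFP and 8.02, 8.27 and 8.20 in Mock cells. Its 3 oligo 1 arrays lay below the other 9, and the oligo 2 arrays overlapped both control groups. It was lower with oligo 1 than with oligo 2 by a log2 difference of -0.68 ± 0.14 (SE, adjusted p = 0.0115), a call lost without oligo 1 array 3 (adjusted p = 0.0565), oligo 2 array 1 (0.0526) or oligo 2 array 3 (0.0578). Ccna2, which encodes cyclin A2, read 10.45, 10.33 and 10.27 with oligo 1, 10.81, 11.01 and 10.87 with oligo 2, 10.80, 11.02 and 10.97 with sirEGFP and 10.91, 10.94 and 11.07 in Mock cells. The oligo 1 arrays again lay below the other 9, and the remaining groups overlapped. The difference was -0.55 ± 0.11 (SE, adjusted p = 0.0132), with an adjusted p of 0.0700 without oligo 1 array 3, 0.0668 without oligo 2 array 2 and 0.0510 without oligo 2 array 3. With only the groups compared in the fit, the adjusted p was 0.0577.

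Cdk1, the kinase of mitotic entry, read 9.11, 9.55 and 9.38 with oligo 1, 9.80, 9.85 and 9.83 with oligo 2, 9.89, 10.23 and 10.08 with sirEGFP and 10.27, 10.29 and 10.21 in Mock cells. Here the groups were stepped: the oligo 1 arrays lay below the oligo 2 arrays, and these below both control groups. Against sirEGFP the change was -0.73 ± 0.13 (SE, adjusted p = 0.00754) with oligo 1, lost without sirEGFP array 2 (adjusted p = 0.0546), and -0.24 ± 0.13 (SE, adjusted p = 0.475) with oligo 2. The difference between the siRNAs was -0.49 ± 0.13 (SE, adjusted p = 0.0508) and passed under some settings, with adjusted p between 0.00215 and 0.229 over 21 alternatives. The remaining members were not called between the siRNAs, with log2 differences of -0.44 for Foxm1, a transcription factor of G2/M genes, -0.39 for the phosphatase gene Cdc25b and -0.24 for the cyclin gene Ccnb2.

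Among mitotic kinases and the chromosomal passenger complex, which Aurkb forms with Incenp, Birc5 and Cdca8, no gene was called between the siRNAs, and the 7 differences ran between -0.55 and -0.30. Plk4 and Birc5 fell against sirEGFP with oligo 1. Birc5, which encodes survivin, read 10.40, 10.34 and 10.44 with oligo 1, 10.82, 10.65 and 10.61 with oligo 2, 11.18, 11.13 and 10.98 with sirEGFP and 11.24, 11.30 and 11.30 in Mock cells. Its groups did not overlap in any pair, and stood in the order oligo 1, oligo 2, sirEGFP and Mock. The change against sirEGFP was -0.70 ± 0.11 (SE, adjusted p = 0.00315) with oligo 1 and -0.40 ± 0.11 (SE, adjusted p = 0.0722) with oligo 2, and the difference between the siRNAs was -0.30 ± 0.11 (SE, adjusted p = 0.175). Plk4, the kinase of centriole duplication, read 8.65, 9.18 and 9.01 with oligo 1, 9.35, 9.40 and 9.43 with oligo 2, 9.40, 9.78 and 9.74 with sirEGFP and 9.75, 9.61 and 9.69 in Mock cells. Every oligo 1 array lay below the other 9 and the oligo 2 arrays overlapped sirEGFP. The change with oligo 1 was -0.69 ± 0.14 (SE, adjusted p = 0.0185), lost without oligo 1 array 1 (adjusted p = 0.0759), oligo 1 array 3 (0.0569), sirEGFP array 2 (0.109) or sirEGFP array 3 (0.0905), and the difference between the siRNAs was -0.45 ± 0.14 (SE, adjusted p = 0.114).

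Incenp, the scaffold of the passenger complex, read 7.82, 7.40 and 7.35 with oligo 1, 8.19, 8.003 and 8.01 with oligo 2, 8.43, 7.88 and 7.88 with sirEGFP and 8.37, 8.48 and 8.21 in Mock cells. Its 3 oligo 1 readings lay below the other 9, and sirEGFP array 1 stood above the other 2 sirEGFP arrays. The difference between the siRNAs was -0.55 ± 0.16 (SE, adjusted p = 0.0873). Aurka, the kinase of spindle poles, read 8.96, 8.59 and 8.44 with oligo 1, 9.17, 9.28 and 9.02 with oligo 2, 9.26, 9.48 and 9.11 with sirEGFP and 9.54, 9.98 and 9.67 in Mock cells. The oligo 1 arrays were the lowest 3 and the Mock arrays the highest 3, and oligo 2 overlapped sirEGFP. The difference between the siRNAs was -0.49 ± 0.16 (SE, adjusted p = 0.116). Plk1, Aurkb and Cdca8 had log2 differences of -0.48, -0.30 and -0.34, and Plk1 and Aurkb had the widest spread: Plk1 read 7.72, 6.54 and 7.11 with oligo 1, and Aurkb 8.70, 7.59 and 8.34, so that array 2 was lowest and array 1 highest in both.

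Of the 5 genes of the spindle checkpoint, which holds anaphase until kinetochores are attached, Bub1b, Ttk and Mad2l1 fell with oligo 1 against sirEGFP, and none was called with oligo 2. Bub1b, which encodes the checkpoint kinase BubR1, read 8.56, 8.54 and 8.55 with oligo 1, 9.36, 9.20 and 9.09 with oligo 2, 9.37, 9.36 and 9.17 with sirEGFP and 9.20, 9.41 and 9.47 in Mock cells. The 3 oligo 1 arrays spanned 0.018 log2 units and lay below the other 9, and the remaining groups overlapped. The difference between the siRNAs was -0.67 ± 0.12 (SE, adjusted p = 0.00549), and the change against sirEGFP was -0.75 ± 0.12 (SE, adjusted p = 0.00372) with oligo 1 and -0.08 ± 0.12 (SE, adjusted p = 0.863) with oligo 2. Ttk, the kinase also called Mps1, read 7.74, 8.09 and 7.96 with oligo 1, 8.55, 8.68 and 8.73 with oligo 2, 8.60, 8.85 and 8.59 with sirEGFP and 8.58, 8.79 and 9.03 in Mock cells. Its oligo 1 arrays lay below the other 9 and the other groups overlapped. The difference was -0.72 ± 0.14 (SE, adjusted p = 0.00875), lost without oligo 2 array 3 (adjusted p = 0.0509). Mad2l1, which encodes the checkpoint protein Mad2, read 10.53, 10.96 and 10.74 with oligo 1, 11.22, 11.06 and 11.32 with oligo 2, 11.20, 11.51 and 11.47 with sirEGFP and 10.96, 11.32 and 11.42 in Mock cells. With oligo 1 its arrays lay below the oligo 2 and sirEGFP arrays, and oligo 1 array 2 was level with Mock array 1. The difference between the siRNAs was -0.46 ± 0.15 (SE, adjusted p = 0.132), and Bub3 and Bub1 had log2 differences of -0.28 and -0.10.

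The genes of anaphase and its ubiquitin ligase had the smallest median difference between the siRNAs of the 8 role groups, -0.31. None of the 4 was called with either siRNA or between them. Pttg1, which encodes securin, read 7.88, 8.56 and 8.15 with oligo 1, 8.64, 8.57 and 8.55 with oligo 2, 8.72, 8.78 and 8.58 with sirEGFP and 8.98, 8.76 and 8.84 in Mock cells. Oligo 1 array 2 was level with the oligo 2 arrays and the other oligo 1 arrays lay lower. The difference was -0.39 ± 0.15 (SE, adjusted p = 0.203), and without oligo 1 array 2 it was called (adjusted p = 0.0226). Cdc20, the activator of the anaphase-promoting complex, read 8.94, 8.35 and 8.81 with oligo 1, 9.28, 9.01 and 8.96 with oligo 2, 9.25, 9.04 and 8.79 with sirEGFP and 9.52, 9.73 and 9.46 in Mock cells. The oligo 1 arrays lay below the oligo 2 arrays but overlapped sirEGFP, and the Mock arrays were the highest 3. Its difference was -0.39 ± 0.17 (SE, adjusted p = 0.282). Espl1, which encodes separase, read 6.41, 5.59 and 5.99 with oligo 1, 6.32, 6.23 and 6.14 with oligo 2, 6.59, 6.16 and 6.22 with sirEGFP and 6.44, 6.65 and 6.63 in Mock cells. Its oligo 1 arrays spanned the oligo 2 arrays and overlapped the sirEGFP arrays, and the difference was -0.23 ± 0.18 (SE, adjusted p = 0.642). Ube2c, the ubiquitin-conjugating partner of the complex, had a difference of -0.16.

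Among the spindle motors and assembly factors, Tpx2 was lower with oligo 1 than on every other array. Of 8 genes, Tpx2, Kif11 and Kif4 were lower with oligo 1 than with oligo 2, and Tpx2, Kif11 and Nusap1 fell against sirEGFP with oligo 1. Tpx2, which activates Aurora A and nucleates spindle microtubules, read 8.40, 8.38 and 8.16 with oligo 1, 9.29, 9.42 and 9.36 with oligo 2, 9.45, 9.54 and 9.28 with sirEGFP and 9.22, 9.54 and 9.48 in Mock cells. The 3 oligo 1 arrays lay at least 0.82 below each of the other 9, and the oligo 2, sirEGFP and Mock arrays shared one range. The difference between the siRNAs was -1.04 ± 0.12 (SE, adjusted p = 0.000499), so that Tpx2 fell by 51.5% with oligo 1 relative to oligo 2, and the change against sirEGFP was -1.11 ± 0.12 (SE, adjusted p = 0.000579) with oligo 1 and -0.07 ± 0.12 (SE, adjusted p = 0.904) with oligo 2. Over 21 alternatives the adjusted p of the difference between the siRNAs lay between 1.83e-06 and 0.00805.

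Kif11, the motor that pushes spindle poles apart, read 9.37, 9.64 and 9.44 with oligo 1, 10.13, 10.46 and 10.33 with oligo 2, 10.29, 10.63 and 10.40 with sirEGFP and 10.12, 10.27 and 10.57 in Mock cells. Its oligo 1 arrays lay below the other 9, and the other groups overlapped. The difference was -0.82 ± 0.15 (SE, adjusted p = 0.00516), and without the 3 end arrays its adjusted p was 0.0596. Kif4, a motor bound to chromosomes, read 8.96, 9.09 and 8.92 with oligo 1, 9.31, 9.52 and 9.56 with oligo 2, 9.22, 9.44 and 9.34 with sirEGFP and 9.28, 9.32 and 9.53 in Mock cells. On the oligo 1 arrays it lay below the other 9 by a small margin, and the oligo 2 arrays reached the upper end of the range. The difference was -0.47 ± 0.12 (SE, adjusted p = 0.04), a call lost on leaving out 8 of the 12 arrays in turn (adjusted p = 0.0517 to 0.168), namely oligo 1 arrays 1 and 3, oligo 2 arrays 2 and 3, sirEGFP arrays 2 and 3 and Mock arrays 1 and 2. The other 5 were not called between the siRNAs: Aspm, which acts at spindle poles, stood at -0.61, the depolymerase gene Kif2c at -0.46, the motor gene Kif18a at -0.42, and Hmmr and Nusap1, which encode microtubule-binding proteins, at -0.41 and -0.31.

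Of the 7 kinetochore and centromere genes, Cenpf, Ndc80, Nuf2, Spc25 and Spdl1 fell with oligo 1 against sirEGFP, and Cenpf, Ndc80 and Spc25 were lower than with oligo 2. Ndc80, Nuf2 and Spc25 are subunits of the complex that binds spindle microtubules. Ndc80 read 9.20, 9.48 and 9.40 with oligo 1, 9.94, 10.18 and 10.07 with oligo 2, 9.97, 10.30 and 10.15 with sirEGFP and 9.96, 10.35 and 10.20 in Mock cells. All 3 oligo 1 arrays lay below the other 9, and the others overlapped. The difference was -0.70 ± 0.14 (SE, adjusted p = 0.00875). Spc25 read 7.38, 8.24 and 7.97 with oligo 1, 8.61, 8.51 and 8.58 with oligo 2, 8.67, 8.84 and 8.69 with sirEGFP and 8.87, 9.05 and 9.06 in Mock cells. Its groups did not overlap in any pair, in the order oligo 1, oligo 2, sirEGFP and Mock, and oligo 1 array 1 lay 0.59 or more below the other oligo 1 arrays. The difference was -0.71 ± 0.17 (SE, adjusted p = 0.0297), lost with quantile normalization (adjusted p = 0.0646), without oligo 1 array 1 (0.0740) or 3 (0.0701) and without oligo 2 array 1 (0.101), 2 (0.0790) or 3 (0.105). With only the groups compared in the fit, the adjusted p for Spc25 was 0.121. Cenpf, a large kinetochore protein gene, read 8.20, 8.44 and 8.29 with oligo 1, 8.80, 9.04 and 8.99 with oligo 2, 8.78, 9.10 and 8.98 with sirEGFP and 8.81, 8.91 and 9.32 in Mock cells. Each oligo 1 array lay below the other 9, and the difference was -0.63 ± 0.14 (SE, adjusted p = 0.0229), lost without oligo 1 array 1 (adjusted p = 0.0732) or 3 (0.0856) and without oligo 2 array 2 (0.0993) or 3 (0.0971).

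Spdl1, which encodes Spindly, a kinetochore adaptor for dynein, was lower with both siRNAs. It read 6.36, 6.92 and 6.75 with oligo 1, 6.60, 6.88 and 6.68 with oligo 2, 7.11, 7.55 and 7.63 with sirEGFP and 7.50, 7.42 and 7.83 in Mock cells. The oligo 1 and oligo 2 arrays shared one range, and all 6 lay below all sirEGFP and Mock arrays. The change against sirEGFP was -0.75 ± 0.17 (SE, adjusted p = 0.032) with oligo 1 and -0.71 ± 0.17 (SE, adjusted p = 0.0455) with oligo 2, and the difference between the siRNAs was -0.04 ± 0.17 (SE, adjusted p = 0.959), with a 95% interval of -0.41 to 0.33. The call with oligo 2 was lost with each array centred on its median (adjusted p = 0.0593), with quantile normalization (0.0774), without any 1 of the oligo 2 arrays (0.178, 0.0716 and 0.146), without sirEGFP array 2 (0.184) or 3 (0.203), without oligo 1 array 3 (0.0710), without Mock array 1 (0.0688) or 2 (0.0555) and with a trend of the variance on the level (0.0538). The call with oligo 1 was lost without oligo 1 array 1 (0.129) or 3 (0.0883) and sirEGFP array 2 (0.150) or 3 (0.151). Cenpa, which encodes the centromeric histone H3 variant, stood apart in the control groups: it read 9.11, 8.66 and 8.44 with oligo 1, 9.38, 9.11 and 9.26 with oligo 2, 8.83, 8.91 and 8.79 with sirEGFP and 9.35, 9.63 and 9.30 in Mock cells. The sirEGFP arrays lay below the oligo 2 and Mock arrays, and none of its comparisons with sirEGFP was called. Nuf2, the motor gene Cenpe and Cenpa had differences between the siRNAs of -0.37, -0.24 and -0.51.

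Of 6 genes of the central spindle and cytokinesis, Prc1, Ect2, Kif20b and Kif23 fell with oligo 1 against sirEGFP, and Prc1, Ect2 and Kif23 were lower with oligo 1 than with oligo 2. Prc1, which bundles the microtubules of the central spindle, read 7.52, 7.71 and 7.77 with oligo 1, 8.32, 8.14 and 8.39 with oligo 2, 8.83, 8.87 and 8.56 with sirEGFP and 8.49, 8.81 and 9.001 in Mock cells. The oligo 1 arrays lay below the oligo 2 arrays, and these below every sirEGFP and Mock array. The change against sirEGFP was -1.09 ± 0.14 (SE, adjusted p = 0.00147) with oligo 1 and -0.47 ± 0.14 (SE, adjusted p = 0.118) with oligo 2, and the difference between the siRNAs was -0.62 ± 0.14 (SE, adjusted p = 0.0263). Ect2, the exchange factor that activates RhoA at the cleavage site, read 9.47, 9.49 and 9.43 with oligo 1, 9.99, 10.13 and 10.09 with oligo 2, 10.31, 10.61 and 10.51 with sirEGFP and 9.87, 10.53 and 10.47 in Mock cells. Again the oligo 1 arrays lay below the other 9, the oligo 2 arrays below sirEGFP, and Mock array 1 below the oligo 2 arrays. The change was -1.01 ± 0.15 (SE, adjusted p = 0.00309) with oligo 1 and -0.41 ± 0.15 (SE, adjusted p = 0.24) with oligo 2, and the difference between the siRNAs was -0.60 ± 0.15 (SE, adjusted p = 0.0426).

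Kif23, a motor of the centralspindlin complex, read 9.03, 9.03 and 8.91 with oligo 1, 9.50, 9.78 and 9.48 with oligo 2, 9.45, 9.55 and 9.45 with sirEGFP and 9.37, 9.59 and 9.67 in Mock cells. Its oligo 1 arrays lay below the other 9 and the other groups overlapped, with oligo 2 array 2 the highest of the 12. The difference was -0.59 ± 0.12 (SE, adjusted p = 0.0129), with an adjusted p of 0.054 when only the groups compared entered the fit. Between the siRNAs, leaving out oligo 1 array 3 ended the calls of Kif23 (adjusted p = 0.0664), Prc1 (0.0605) and Ect2 (0.140). Leaving out oligo 1 array 1 ended those of Prc1 (0.0896) and Ect2 (0.0849), and oligo 1 array 2 that of Ect2 (0.0650). Among the oligo 2 arrays, array 1 ended those of Prc1 (0.0944) and Ect2 (0.0872), array 2 those of Kif23 (0.0681) and Ect2 (0.139), and array 3 those of Prc1 (0.124) and Ect2 (0.141), which also missed without sirEGFP array 2 (0.0562) or 3 (0.0565). The motor genes Kif20b and Kif20a and the anillin gene Anln had differences of -0.50, -0.25 and -0.34.

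The next group holds 8 genes of condensin, which folds mitotic chromosomes, of topoisomerase and of the chromosome surface. The condensin genes Ncapg2, Ncaph, Ncapg and Smc2 were lower with oligo 1 than with oligo 2. These 4 of 8 genes are the same share as the 3 of 6 of the central spindle and cytokinesis. Ncapg2, a subunit of condensin II, read 7.28, 7.62 and 7.73 with oligo 1, 8.75, 8.56 and 8.79 with oligo 2, 8.75, 8.84 and 8.82 with sirEGFP and 8.33, 8.39 and 8.91 in Mock cells. Here too the oligo 1 arrays lay 0.60 or more below the other 9, and the oligo 2 and sirEGFP arrays shared one range. The difference was -1.16 ± 0.16 (SE, adjusted p = 0.00102), so that Ncapg2 fell by 55.2% with oligo 1 relative to oligo 2, the largest change in the list. Ncaph, the kleisin of condensin I, read 9.06, 8.60 and 8.59 with oligo 1, 9.60, 9.81 and 9.70 with oligo 2, 9.19, 9.38 and 9.04 with sirEGFP and 9.30, 9.48 and 9.45 in Mock cells. It moved apart in both directions: its oligo 2 arrays lay above all 6 control arrays and its oligo 1 arrays below the oligo 2 and Mock arrays, with oligo 1 array 1 just above sirEGFP array 3. The change against sirEGFP was -0.45 ± 0.14 (SE, adjusted p = 0.134) with oligo 1 and 0.50 ± 0.14 (SE, adjusted p = 0.0933) with oligo 2, neither called, and the difference between the siRNAs was -0.95 ± 0.14 (SE, adjusted p = 0.00171).

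Smc2, a condensin ATPase, read 9.20, 9.52 and 9.28 with oligo 1, 9.78, 10.09 and 10.04 with oligo 2, 9.87, 10.07 and 9.97 with sirEGFP and 9.74, 9.87 and 10.06 in Mock cells. In oligo 1 cells its values lay below the other 9 and the rest overlapped. The difference was -0.64 ± 0.13 (SE, adjusted p = 0.0135), lost without oligo 1 array 3 (adjusted p = 0.0645), oligo 2 array 2 (0.0687) or oligo 2 array 3 (0.0679). It was also lost with only the groups compared in the fit (0.0556). Ncapg, of condensin I, differed by -0.70 ± 0.15 (SE, adjusted p = 0.0155), lost without oligo 1 array 1 or 3 or oligo 2 array 2 or 3 (adjusted p up to 0.0833). Smc4 and Ncapd2, further condensin genes, stood at -0.45 and -0.25, Top2a, which encodes the topoisomerase of chromosome segregation, at -0.59 and Mki67, which encodes the Ki-67 protein of the chromosome surface, at -0.47, and none of these was called. Top2a had a second, dimmer probe set, which did not separate the siRNAs. It read 4.53, 6.13 and 5.51 with oligo 1, 5.29, 5.88 and 6.28 with oligo 2, 6.14, 7.25 and 7.02 with sirEGFP and 6.25, 6.40 and 7.23 in Mock cells. Its oligo 1 arrays lay below the control arrays, array 2 only just, but overlapped the oligo 2 arrays. Its oligo 2 arrays 1 and 2 also lay below every control array. On the main probe set the oligo 1 arrays lay below the oligo 2 arrays, and these overlapped sirEGFP.

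**Figure D4:**
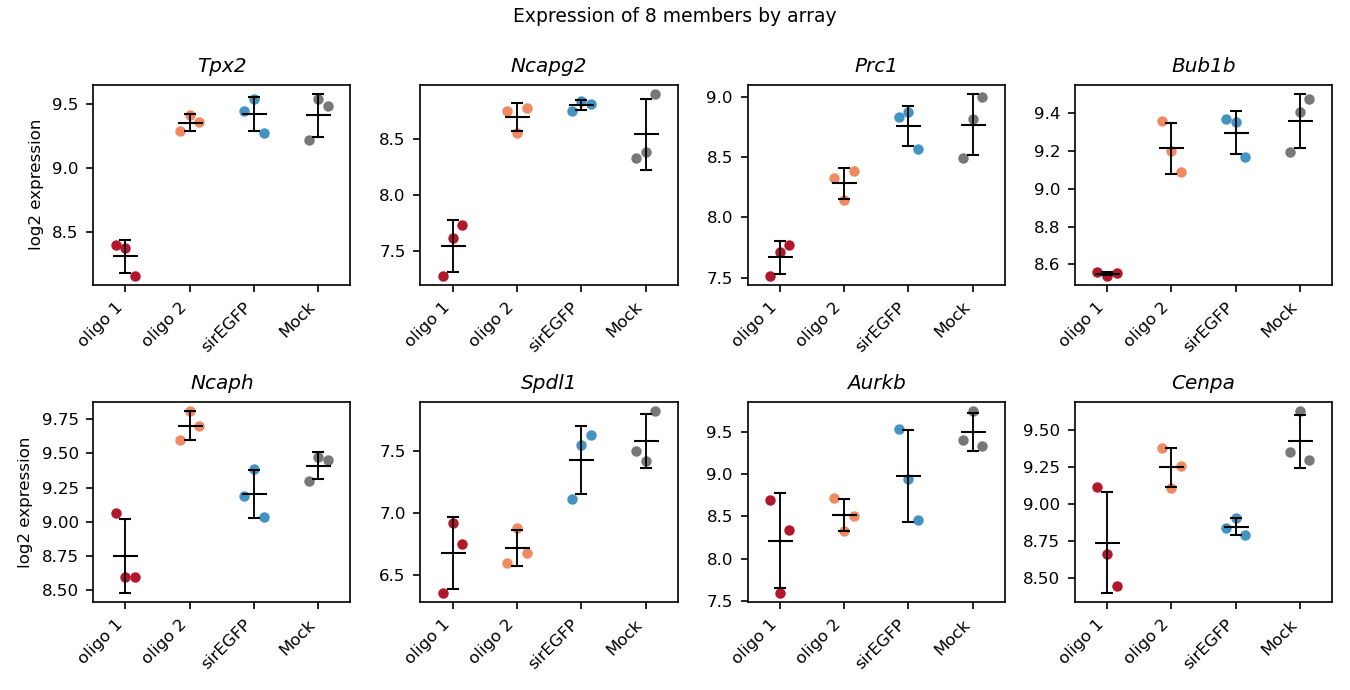
Log2 expression of 8 members on each array (points), with the mean and SD of the 3 arrays of each group (black). Tpx2, Ncapg2 and Bub1b are low with oligo 1 alone, Prc1 steps down over the siRNAs, Ncaph is high with oligo 2, Spdl1 is low with both siRNAs, and Aurkb and Cenpa, chosen after their values were seen, show wide spread with oligo 1 and low sirEGFP values.

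Set against Mock, 35 of the 51 genes fell with oligo 1 and 0 rose, where 1.4% of all genes were called lower and 1.35% higher, and the median change was -0.70. With oligo 2, Birc5, Spdl1 and Nusap1 fell against Mock, where 1.32% of all genes were called lower, with a median of -0.18. Of the 51 changes with oligo 2 against Mock, 43 lay below 0, where 48% of all genes did. Without Mock array 3 the number was 36, where 52.8% of all genes lay below 0, and without Mock array 1 it was 45, where 46.8% did. The control siRNA itself gave 0 calls against Mock among these genes and 0% among all genes by limma, with 4 of the genes (Cenpa, Cdc20, Aurka and Cdc25b) lower at an unadjusted p under 0.05 and 0 higher, where 2.42% of all genes were lower and 3.84% higher. The median change of the 51 genes with sirEGFP against Mock was -0.10 and 39 of them lay below 0. It was -0.02 without Mock array 3 and -0.05 without sirEGFP array 1, with 30 and 29 below 0, and -0.17 without sirEGFP array 2 and -0.15 without Mock array 1, with 43 and 44 below 0. By replicate number, 28, 25 and 45 of the 51 genes were below 0, the last of these for arrays 3. The count with oligo 1 was 21 when only the groups compared entered the fit, where 0.752% of all genes were called lower. It was 18 without oligo 1 array 3 (0.632% of all genes), 18 without Mock array 2 (0.777%) and 20 without Mock array 3 (0.747%). Without the 3 end arrays the median change with oligo 1 was -0.77. The count with oligo 2 was 6 without oligo 1 array 1 (1.73%), and 1 without oligo 2 array 1 (0.838%) or oligo 2 array 3 (0.512%).

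The mean of both siRNAs against sirEGFP called 9 of the 51 genes, where 0.722% of all genes were called lower: Prc1, Birc5, Tpx2, Ect2, Ncapg2, Spdl1, Nusap1, Cdk1 and Kif11, all lower. The median change was -0.32. Leaving out sirEGFP array 2 left 1 of these calls and leaving out sirEGFP array 3 left 3, and the number was 5 without oligo 2 array 1 or oligo 2 array 3. Of all genes, 0.12%, 0.171% and, for either oligo 2 array, 0.406% were called lower there.

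Within the oligo 1 group the arrays ordered genes in opposite ways, among all genes as among the 51. In 13 of the 51 genes (25.5%) array 1 was the highest and array 2 the lowest of the 3. As 25.4% of all genes showed this, it is not particular to the members. Plk1, Aurkb, Cdc20, Foxm1, Cdc25b and Kif20a were among the 13. In 20 genes (39.2%) array 1 was the lowest and array 2 the highest, where 25.1% of all genes showed this, among them Cdk1, Top2a, Smc4, Ttk and Spc25. The median SD with oligo 1 was 0.35 in the 13 genes, 0.22 in the 20 and 0.13 in the other 18, and 2, 7 and 8 of them were called between the siRNAs. The sets were sorted by the same oligo 1 values that give these SDs and enter these calls. Neither the SDs nor the counts are therefore independent of the sorting. Arrays 1 and 2 of oligo 1 also mark the ends of the within-group axis, and the part of the axis in these results was not tested. Over all 51 genes the median SD was 0.22 with oligo 1, 0.13 with oligo 2, 0.17 with sirEGFP and 0.17 in Mock cells.

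Genes that work with these members were read from lists of the same pathways. Their counts stand beside the same shares of all genes as above, 2.3% lower between the siRNAs, 1.43% lower with oligo 1 against sirEGFP and 0.742% lower with oligo 2. Of 59 measured further G2/M genes, 16 were lower with oligo 1 than with oligo 2 and 0 higher, with a median difference of -0.44, and 25 fell with oligo 1 against sirEGFP and 0 with oligo 2. Ncapd3, of condensin II, differed by -0.97 ± 0.13 (SE, adjusted p = 0.001), Bard1, the partner of BRCA1, by -0.89 ± 0.13 (SE, adjusted p = 0.00122) and Cks1b, a Cdk-binding protein gene, by -0.75 ± 0.12 (SE, adjusted p = 0.00226). Among 15 genes of the MuvB, B-Myb and DREAM complexes and NF-Y, 4 were lower with oligo 1 than with oligo 2, with a median of -0.33. Rbl1, which encodes p107, differed by -0.65 ± 0.11 (SE, adjusted p = 0.00392), Nfyb, a subunit of NF-Y, by -0.64 ± 0.13 (SE, adjusted p = 0.0125) and Lin9, of MuvB, by -0.62 ± 0.15 (SE, adjusted p = 0.0365), and the call of Lin9 was lost with quantile normalization (adjusted p = 0.104) and without oligo 1 array 1 (0.125) or 3 (0.0902), any 1 oligo 2 array (0.0953 to 0.124) or any 1 Mock array (0.0512 to 0.0548). The call of Nfyb was lost without oligo 2 array 1 (adjusted p = 0.0528). With only the groups compared in the fit, Nfyb (0.0573) and Lin9 (0.104) both lost their calls.

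The anaphase-promoting complex had 0 of 16 subunits called between the siRNAs and a median difference of -0.09, with Cdc23 at -0.30, Cdc27 at -0.36 and Cdc26 at -0.28. Of 15 cohesin and tubulin genes, 4 were lower with oligo 1 than with oligo 2. Rad21, the kleisin of cohesin, read 10.00, 10.28 and 10.15 with oligo 1, 11.28, 11.34 and 11.24 with oligo 2, 11.16, 11.21 and 11.08 with sirEGFP and 10.95, 11.16 and 11.25 in Mock cells. The oligo 1 arrays lay 0.68 or more below the other 9, and the difference was -1.14 ± 0.12 (SE, adjusted p = 0.000135). Stag1 and Smc3, further cohesin genes, differed by -0.75 ± 0.16 (SE, adjusted p = 0.018) and -0.54 ± 0.12 (SE, adjusted p = 0.0189), and both calls were lost without oligo 1 array 1 (adjusted p = 0.0668 and 0.0754), oligo 2 array 2 (0.0797 and 0.0619) or oligo 2 array 3 (0.0796 and 0.0968). Stag1 was also lost without oligo 1 array 3 (0.0510), and Smc3 with only the groups compared in the fit (0.0777).

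Of 39 measured genes of DNA replication and the G1/S step, 15 were lower with oligo 1 than with oligo 2 and 0 higher, with a median difference of -0.57, and 11 fell with oligo 1 against sirEGFP and 1, Orc2, with oligo 2. Dtl, a receptor of the Cul4 ubiquitin ligase, differed by -0.87 ± 0.12 (SE, adjusted p = 0.000937), Rfc3, of the clamp loader, by -0.80 ± 0.11 (SE, adjusted p = 0.00102) and Mcm4, of the replicative helicase, by -0.72 ± 0.12 (SE, adjusted p = 0.00245). The mean centred level of this list was -0.18, -0.49 and -0.34 on the oligo 1 arrays, 0.27, 0.04 and 0.12 on the oligo 2 arrays, 0.22, 0.03 and -0.04 on the sirEGFP arrays and 0.12, 0.14 and 0.11 on the Mock arrays. The spread between the oligo 1 arrays was wider there than for the G2/M and mitosis genes, and no test was made of the difference between the lists.

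**Figure D5:**
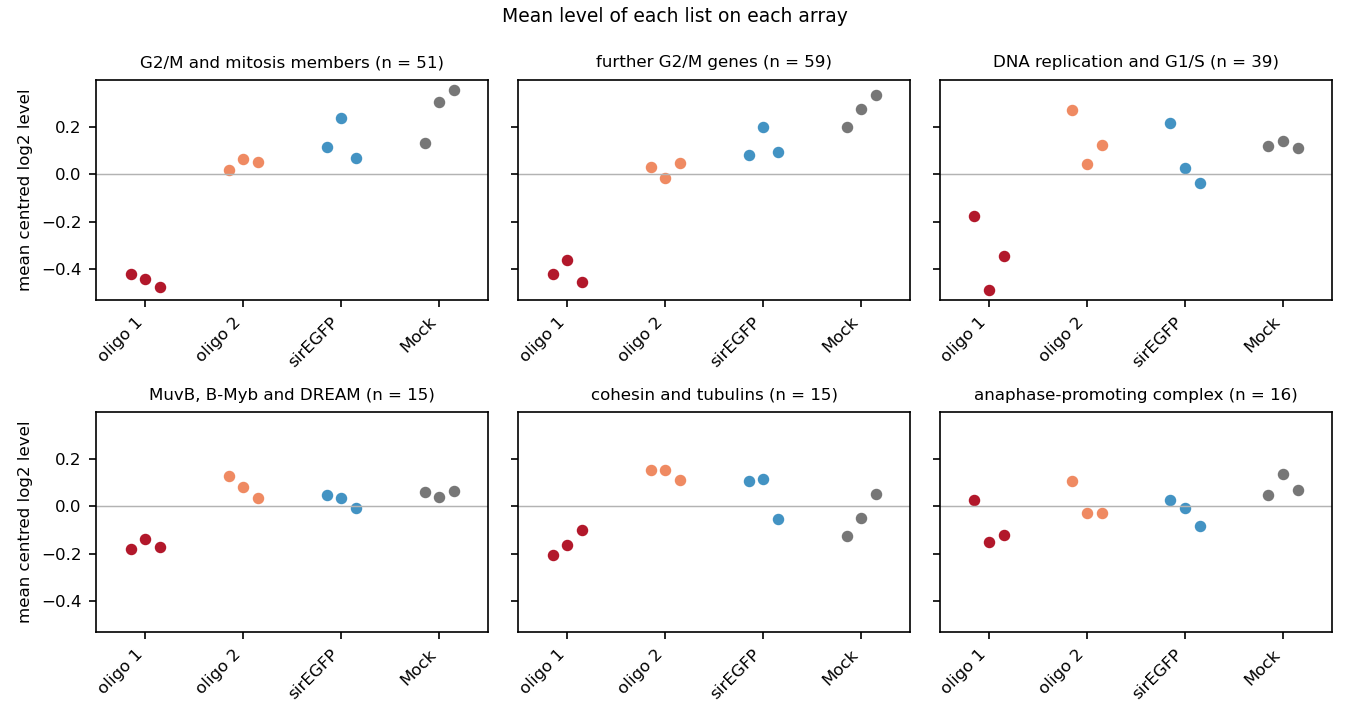
Mean level of the genes of each list on each array, after centring each gene on its mean over the 12 arrays; points are arrays and n is the number of genes. The oligo 1 arrays lie lowest for the G2/M and mitosis genes, the further G2/M genes, the replication genes and the MuvB, B-Myb and DREAM genes. They overlap the other groups for the cohesin and tubulin genes and the anaphase-promoting complex.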

How the data were processed

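The data are 12 Affymetrix arrays of NIH3T3 cells in 4 groups of 3. The authors deposited 1 log2 expression value for each of 35512 probe sets and each array, and no column was left unused. The log2 scale was read from the values. How probe sets were summarised and normalized is not given in the sources used here, and limma is named without a step or version, per the submitters' processing notes. Signal over background could not be judged, and precision is limited by there being 3 arrays a group.

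Gene names came from the platform annotation, in which 21789 probe sets carried 1 symbol, 1621 several and 12102 none. Symbols were updated by Entrez identifier through RefSeq (GRCm38.p6), which matched 21698. Each gene took the probe set with 1 symbol and the highest mean, which left 19938 genes. Ccnb1 and Cdkn1a were not analysed here.

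One limma model (version 3.58.1, R 4.3.3; lmFit, then eBayes) held all 12 arrays, with a coefficient for each group and 8 residual degrees of freedom. Tests were two-sided, with Benjamini-Hochberg adjustment over the 19938 genes. The fit was tested on simulated data with independent noise for each gene and array. These lack the spread within groups that genes share here, so the test does not show how the fit performs under it. P-values measure the spread between these samples only. Promoters came from RefSeq and were searched with Python 3.11.15. Replicate numbers are shared by the groups. Of 18 same-numbered pairs of arrays, 12 had deviations from their group means that correlated above 0.1 (range -0.237 to 0.551). The same-numbered correlations were 0.551, 0.294 and -0.08 for oligo 1 with sirEGFP, and 0.548, 0.24 and 0.182 for oligo 2 with sirEGFP. They were -0.02, -0.237 and 0.211 for oligo 1 with Mock. Whether the numbers mark shared experiments is not stated, and the main fit did not pair the samples. The fit with the replicate number as a block was an alternative. It raised the calls from 24 to 31 with oligo 1 against sirEGFP and from 17 to 24 between the siRNAs.

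The members and the other gene lists were chosen with earlier results of these data known. Values on every array are given, in each role group, for the 3 genes with the smallest p between the siRNAs, for the 1 with the smallest p in the mean of both siRNAs against sirEGFP and for any gene called with oligo 2 against sirEGFP. From each other list the 3 with the smallest p between the siRNAs are named. Plk1, Aurkb, Cenpa and the second probe set of Top2a were shown by array after their values were seen. Alternatives covered the scaling between arrays, a filter on dim genes, the choice of probe set, array weights, a variance trend, only the groups compared, the promoter window and leaving out arrays.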

Additional observations from a re-analysis of the deposited data

Results flagged for a closer look

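For 16 of the named G2/M and mitosis genes, the effects of the siRNAs against the same control differed, by limma's test of the difference itself. The log2 difference oligo 1 minus oligo 2 was -1.16 for Ncapg2, -1.04 for Tpx2, -0.95 for Ncaph and -0.82 for Kif11. It was -0.72 for Ttk, -0.71 for Spc25, -0.70 for Ndc80, -0.68 for Cdc25c and -0.67 for Bub1b. For Smc2 it was -0.64, for Cenpf -0.63, for Prc1 -0.62, for Ect2 -0.60, for Kif23 -0.59, for Ccna2 -0.55 and for Kif4 -0.47. Ubtf itself differed by 0.05 between the siRNAs. Whether the difference comes from the target or from other effects of either siRNA was not tested.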

How the results depend on the processing

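The median difference of the 51 genes between the siRNAs lay between -0.54 and -0.45 on leaving out any single array, and with oligo 1 against sirEGFP between -0.64 and -0.53. Numbers of genes called moved more, and the cause was not tested. Array weights gave 45 calls with oligo 1 against sirEGFP, 4 with oligo 2 (1 of them higher), 39 between the siRNAs, 29 for the mean of both and 8 with oligo 2 against Mock. Oligo 1 array 3 had a weight of 8.92 there, and calls of lower values rose over all genes too, to 9.22% with oligo 1 against sirEGFP, 2.1% with oligo 2, 8.67% between the siRNAs, 3.92% for the mean and 2.8% with oligo 2 against Mock. Without oligo 1 arrays 1 and 2 and sirEGFP array 1, the numbers were 10 with oligo 1, 3 with oligo 2 (1 of them higher), 3 between the siRNAs, 14 for the mean, 12 with oligo 1 against Mock and 9 with oligo 2 against Mock, where 0.542%, 1.56%, 0.642%, 1.12%, 0.431% and 2.27% of all genes were called lower. With only the groups compared in the fit, they were 7 with oligo 1 against sirEGFP, 21 with oligo 1 against Mock and 7 with oligo 2 against Mock, beside 0.306%, 0.752% and 1.87% of all genes. Between the siRNAs that setting gave 12 and for the mean of both 7, beside 1.22% and 0.421%. Among the named genes, Kif4 (adjusted p = 0.105) lost its call between the siRNAs there, and Cdk1 (0.0833), Plk4 (0.135) and Spdl1 (0.139) were among those that lost theirs with oligo 1 against sirEGFP. With oligo 2 against sirEGFP, centring on the median and quantile normalization gave 0 each (0.637% and 0.848% of all genes), and against Mock quantile normalization gave 7 (1.85%) and the filter on dim genes 5 (1.97%). With the replicate block, 19 genes were called in the mean of both siRNAs and 6 with oligo 2 against Mock, while oligo 1 against sirEGFP gave 31, oligo 2 against sirEGFP 1, the siRNAs against each other 24, oligo 1 against Mock 41 and sirEGFP against Mock 0, beside 1.44%, 2.23%, 2.12%, 1.14%, 3.36%, 2.05% and 0.015% of all genes. Same-numbered arrays of oligo 1 and oligo 2 had deviations that correlated at 0.388, 0.294 and 0.115.

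Leaving out 1 array gave 7 to 26 calls with oligo 1 against sirEGFP, 0 to 2 with oligo 2, 7 to 22 between the siRNAs, 1 to 13 for the mean, 18 to 36 with oligo 1 against Mock, 1 to 6 with oligo 2 against Mock and 0 with sirEGFP against Mock. The share of all genes called lower moved too, for example between 0.426% and 2.06% with oligo 1 against sirEGFP and between 1% and 2.62% between the siRNAs. The difference in Ubtf lay between -0.75 and -0.61, and its exact p within replicate numbers (a replicate block chosen after seeing the data) was 0.00926. The filter on dim genes was not run for the exact test of Ubtf because it cannot change the difference. Array weights can change the difference and were not run for that test. Counts of genes without overlap between groups, an alternative added after seeing the data, were 31 to 38 between the siRNAs under the other scalings and the other choice of probe set. With only the bases before the start site searched, TTTGAA was found in 37.2% of genes, either CHR form in 51.2% and CCAAT with a CHR form in 41.9%.

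Values that changed sign were all uncalled. With oligo 2 against sirEGFP, Incenp was -0.0042 centred and -0.068 with quantile normalization, Smc2 was -0.0084 centred, -0.0258 with array weights and -0.0469 without the 3 arrays, and Espl1 was 0.0423 without the 3 arrays. In the mean of both, Ncaph was -0.0068 centred, -0.0922 with array weights and -0.0609 without the 3 arrays, and Cdc20 was 0.0298 without the 3 arrays. Between the siRNAs Spdl1 was 0.0364 with array weights and 0.0335 without the 3 arrays. On leaving out 1 array, changes with oligo 2 ranged between -0.0049 and 0.157 for Cdc25c, -0.0991 and 0.012 for Ccna2, -0.0873 and 0.188 for Incenp, -0.0713 and 0.0561 for Ttk, -0.0614 and 0.169 for Cdc20, -0.173 and 0.0423 for Espl1, -0.161 and 0.0037 for Ndc80, -0.0979 and 0.0625 for Cenpf and -0.0601 and 0.0969 for Smc2. Spdl1 between the siRNAs ranged between -0.165 and 0.118, Ncaph in the mean between -0.0607 and 0.114 and Cdc26 with oligo 1 between -0.120 and 0.0231.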
